A study of Homo sapiens with 4 samples.

Results

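The homeobox and PAX regulators outside the HOX clusters were examined in the nearly haploid human line HAP1. The group is a list of 56 gene symbols from the paired box (PAX), sine oculis (such as SIX3), distal-less (DLX), LIM, NK, OTX, PITX, EMX, EN, MSX, Iroquois (IRX), CDX and POU families. It was drawn up by gene family and not by a rule on measured values, though earlier results of these data were known. Ensembl identifiers tied 55 of the 56 symbols to rows of the count tables, out of 57820 genes in all, and LHX1 was not analysed here. RNA-seq counts came from 2 RING1A/RING1B double knockout (dKO) libraries and 2 libraries of cells that also lacked BAP1 (tKO). All 4 libraries were from untreated cells grown in IMDM with serum, and all 4 lacked RING1A and RING1B, so no library with intact PRC1 stands beside them here. BAP1 and RING1A were interrupted by a STOP cassette, an antibiotic resistance gene followed by a polyadenylation signal. The RING1B knockout cells were bought, and clones selected for resistance were used, so that each genotype stands for selected clones. The comparison asked which of these regulators are transcribed when PRC1 cannot ubiquitinate histone H2A, and which of them change when BAP1 is lost as well.

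Homeobox genes encode transcription factors that bind DNA through a helix-turn-helix fold, the homeodomain, and PAX proteins carry a paired domain with or without a homeodomain. They specify regions and cell types of the embryo, and most are transcribed in few tissues. Polycomb complexes keep many of them silent elsewhere. PRC1 places ubiquitin on histone H2A through RING1A or RING1B, and PRC2 methylates histone H3. BAP1 is an enzyme that removes ubiquitin placed by PRC1. The promoters of such genes are often CpG-rich, whether or not the gene is transcribed.

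Promoter windows from RefSeq (GRCh38.p14, 300 bases that reach from upstream of the start site to shortly after it) were found for 42 of the 55 genes, and 5 are printed to show that CpG-rich promoters stood over members at opposite ends of the range of levels. The first 3 belong to transcribed members. The window of LHX2 is chr9:124011518-124011817 on the plus strand with 30 CpG dinucleotides, that of DLX1 is chr2:172085257-172085556 on the plus strand with 23, and that of POU3F2 is chr6:98834324-98834623 on the plus strand with 24. The other 2 belong to members with 0 counts in every library, PAX3 at chr2:222298949-222299248 on the minus strand with 21 CpG dinucleotides and IRX1 at chr5:3595582-3595881 on the plus strand with 38. They were chosen from the members with a single window, as the 3 highest by level per length and those with no count. Capitals mark the CpG dinucleotides, each sequence runs 5′ to 3′ on the gene's strand, and the build differs from the GRCh37 build of the counts.
LHX2: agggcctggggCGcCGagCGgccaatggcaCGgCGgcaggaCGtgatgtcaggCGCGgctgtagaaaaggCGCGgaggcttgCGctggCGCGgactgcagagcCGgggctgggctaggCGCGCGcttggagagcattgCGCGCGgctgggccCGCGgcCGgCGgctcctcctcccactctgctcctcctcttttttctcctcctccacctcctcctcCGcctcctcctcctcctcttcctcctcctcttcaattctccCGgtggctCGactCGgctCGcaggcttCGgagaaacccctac
DLX1: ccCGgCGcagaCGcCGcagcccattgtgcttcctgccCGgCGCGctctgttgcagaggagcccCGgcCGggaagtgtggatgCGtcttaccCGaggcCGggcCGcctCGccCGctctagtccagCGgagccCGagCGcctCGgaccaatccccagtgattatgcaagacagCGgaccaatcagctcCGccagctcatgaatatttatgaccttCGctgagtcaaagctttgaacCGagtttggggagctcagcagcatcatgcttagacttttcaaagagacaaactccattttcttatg
POU3F2: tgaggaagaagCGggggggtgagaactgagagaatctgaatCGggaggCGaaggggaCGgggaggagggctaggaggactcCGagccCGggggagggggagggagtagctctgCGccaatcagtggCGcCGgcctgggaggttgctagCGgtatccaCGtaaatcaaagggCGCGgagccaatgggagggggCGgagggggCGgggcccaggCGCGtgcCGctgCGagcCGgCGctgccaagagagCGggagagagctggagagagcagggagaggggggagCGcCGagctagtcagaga
PAX3: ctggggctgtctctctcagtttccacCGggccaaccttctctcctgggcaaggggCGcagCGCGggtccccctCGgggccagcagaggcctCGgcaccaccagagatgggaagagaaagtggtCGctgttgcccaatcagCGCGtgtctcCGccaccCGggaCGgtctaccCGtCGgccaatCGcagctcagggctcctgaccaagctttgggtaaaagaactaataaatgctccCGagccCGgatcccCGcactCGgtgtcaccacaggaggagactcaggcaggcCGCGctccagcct
IRX1: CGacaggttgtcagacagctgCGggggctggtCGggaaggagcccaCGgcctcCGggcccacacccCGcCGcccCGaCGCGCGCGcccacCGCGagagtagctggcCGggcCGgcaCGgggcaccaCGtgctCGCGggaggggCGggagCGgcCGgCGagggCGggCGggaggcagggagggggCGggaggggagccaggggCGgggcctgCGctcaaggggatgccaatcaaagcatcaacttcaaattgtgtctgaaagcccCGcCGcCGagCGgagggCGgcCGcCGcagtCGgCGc

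Before the regulators are described, the libraries were checked against their labels. Counts in genes ran from 16054590 to 18455410 per library, so that 3 counts, taken as the floor, were worth between 0.163 and 0.187 CPM (counts per 1000000 counts in genes). BAP1 stood at 111 and 112 CPM in dKO and at 9.63 and 6.67 CPM in tKO, with a log2 fold change of -3.77 (SE 0.19; limma, adjusted p = 0.0065). RING1, the gene of RING1A, had 12, 17, 12 and 13 counts in dKO 1, dKO 2, tKO 1 and tKO 2, and RNF2, the gene of RING1B, was still counted at 77.0, 86.8, 76.9 and 68.6 CPM. Library tKO 1 was low over chr10:176028-38439221 (131 tested genes, median log2 ratio to dKO of -0.97) and tKO 2 over chr3:238446-57113357 (358 tested genes, median -0.92), and 0 of the regulators lie on chromosome 3 or on the short arm of chromosome 10. BAP1 itself lies in the chromosome 3 stretch, and the part of that stretch in its lower tKO 2 level was not tested. Of 12 markers of the blood lineage from which HAP1 derives, 2 exceeded 0.5 CPM in at least 2 libraries, the filter used throughout. These were KIT, at a mean of 51.0 CPM, and RUNX1, at 12.0 CPM. Of the 12, 5 had no count in any library. Of 6 markers of adherent lines, 4 passed the filter (VIM, CDH2, KRT18 and KRT8), with KRT8 near it at a mean of 0.84 CPM. CDH1 had 0, 0, 1 and 2 counts in dKO 1, dKO 2, tKO 1 and tKO 2, and EPCAM had no count in any library. VIM lies in the chromosome 10 stretch and was at 263 CPM in tKO 1, against 514, 479 and 490 CPM in dKO 1, dKO 2 and tKO 2.

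Most of these regulators were transcribed in cells without PRC1 activity. A gene was tested where its level exceeded 0.5 CPM in at least 2 libraries, and 39 of the 55 members (70.9%) passed, against 64.8% of protein-coding genes. All 39 passed in both dKO libraries and in both tKO libraries. The division between the 39 and the other 16 was wide: the least abundant tested member had no fewer than 24 counts in any library, and no untested member had more than 8. Of the 39, 35 stood above 5 CPM in every library and 28 above 10 CPM. In bulk RNA, a transcript made by few cells and one made at a low level by every cell cannot be told apart. Without a library of wild-type cells, these levels do not say whether a gene was silent before the RING1A and RING1B genes were inactivated.

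The regulators were nonetheless a small part of the transcriptome. Together they took between 0.102% and 0.105% of the counts in genes, and OTX2 alone made up 25.3% to 28.6% of that sum. Per kilobase of the canonical transcript, the median tested member stood at 5.29 CPM per kb, against 10.4 CPM per kb for the protein-coding genes past the filter. OTX2 led at 92.2 CPM per kb, followed by DLX5 at 19.96, LHX2 at 19.4, PAX6 at 16.7, DLX1 at 14.9, SIX3 at 12.3, POU3F2 at 11.8, DLX6 and DLX4 at 11.7 each and NKX2-1 at 10.9 CPM per kb. With the length of all annotated exons in place of the canonical transcript, 8 of these 10 remained among the first 10, and PAX6 moved from rank 4 to rank 30.

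**Figure D1:**
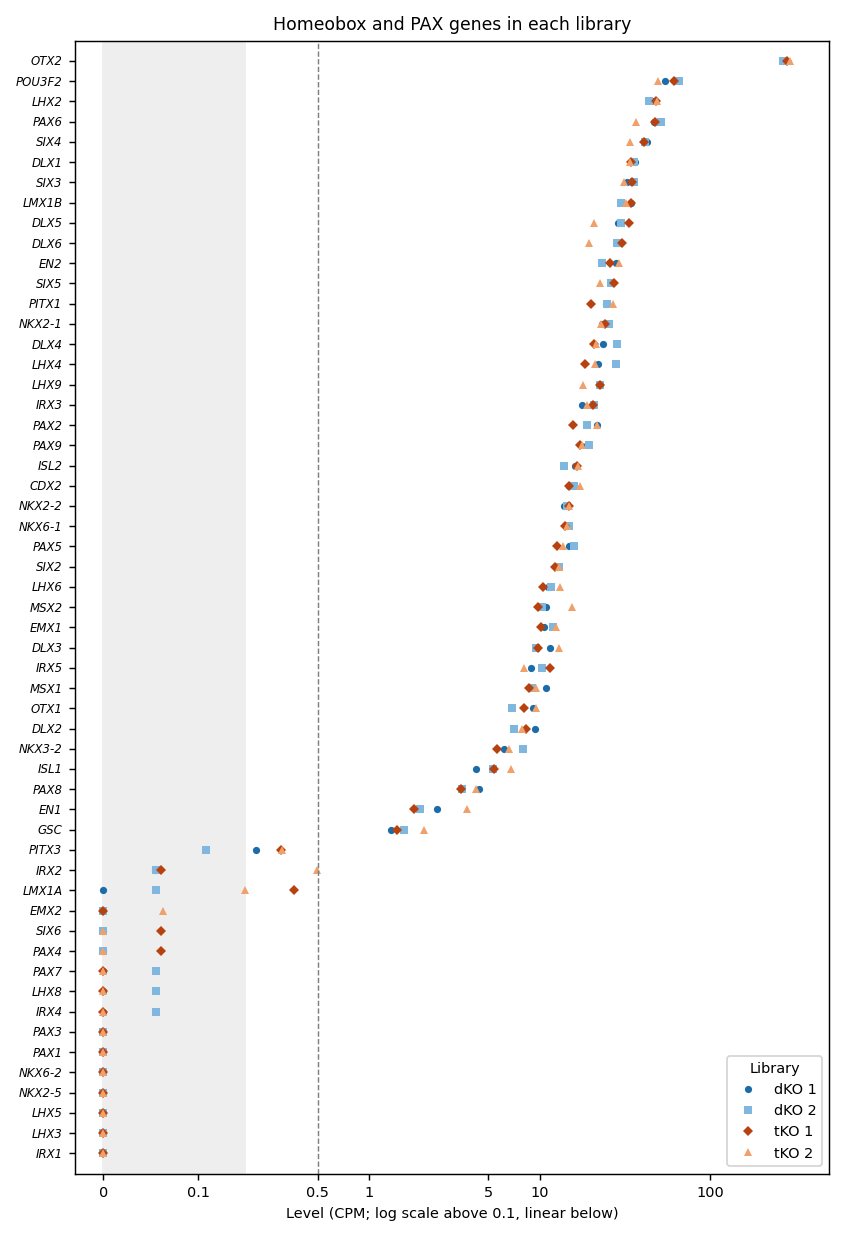
Level of each of the 55 matched genes in each library, in CPM (log scale above 0.1, linear below); the dashed line is the filter at 0.5 CPM and the grey band ends at the highest 3-count floor, 0.187 CPM. The 39 tested members lie to the right of the line in all 4 libraries and the 16 others to its left, with OTX2 between 266 and 292 CPM.

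The paired-like homeobox genes held the highest level. OTX2 (chr14:57266623-57283411, minus strand, GRCh37), a regulator of forebrain and eye formation that is also active in early embryonic cells, was counted at 268 and 266 CPM in dKO and at 283 and 292 CPM in tKO. Both tKO libraries stood above both dKO libraries, with means of 267 ± 1.39 and 288 ± 6.33 CPM (SD, n = 2 each) and a log2 fold change of 0.11 (SE 0.08; limma, adjusted p = 0.996). Its paralog OTX1 was far lower, at 9.16 and 6.89 CPM in dKO and 8.10 and 9.59 CPM in tKO. PITX1, a determinant of hindlimb identity, was at 24.4 and 24.7 CPM in dKO and at 20.1 and 26.8 CPM in tKO. GSC, named for its activity in the gastrula organizer, was the least abundant tested member, with 25, 29, 24 and 34 counts in dKO 1, dKO 2, tKO 1 and tKO 2. PITX3, a regulator of lens and midbrain dopaminergic neurons, had 4, 2, 5 and 5 counts in the same order and was not tested.

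The 6 distal-less genes, which pattern jaw, limb and forebrain, all passed the filter. They lie in neighbouring pairs that point in opposite directions: DLX1 (chr2:172949468-172954405, plus) beside DLX2 (chr2:172964166-172967628, minus), DLX4 beside DLX3 on chromosome 17, and DLX6 (chr7:96634865-96640352, plus) beside DLX5 (chr7:96649708-96654262, minus). DLX1 stood at 36.5 and 35.7 CPM in dKO and at 34.3 and 34.0 CPM in tKO, and DLX2 at 9.43 and 7.11 CPM and at 8.35 and 7.91 CPM. DLX4 was at 23.5 and 28.4 CPM in dKO and at 20.8 and 21.6 CPM in tKO, both tKO libraries below both dKO libraries. DLX3, known for its part in hair, tooth and bone, was at 11.6 and 9.56 CPM in dKO and at 9.81 and 13.1 CPM in tKO. In the third pair the tKO libraries parted. DLX5 was at 28.9 and 30.0 CPM in dKO, at 33.3 CPM in tKO 1 and at 21.0 CPM in tKO 2. DLX6 was likewise highest in tKO 1 and lowest in tKO 2, with 29.2 and 28.5 CPM in dKO, 30.6 CPM in tKO 1 and 19.6 CPM in tKO 2. For both genes the dKO libraries lay between the tKO libraries. The antisense transcript DLX6-AS1, annotated on the strand opposite to DLX6, had 259 and 255 counts in dKO and 353 and 235 counts in tKO 1 and tKO 2.

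Among the 11 matched LIM homeobox genes, which join 2 LIM domains to a homeodomain and act with LDB cofactors, 7 passed the filter. LHX2, a regulator of forebrain, eye and hair follicle progenitors, was at 45.4 and 44.02 CPM in dKO and at 48.3 and 48.5 CPM in tKO. The groups did not overlap, and the log2 fold change was 0.12 (SE 0.11; limma, adjusted p = 0.996). LMX1B, required for dorsal limb and kidney glomerulus, was at 34.3 and 29.8 CPM in dKO and at 34.4 and 32.1 CPM in tKO. LHX4 (chr1:180199399-180248119, plus), a pituitary regulator, had the lowest fold change of the members, at 21.9 and 27.96 CPM in dKO against 18.4 and 21.1 CPM in tKO. Its levels rest on counts of one strand, since 40.4% of the stranded counts over its exons were on the opposite strand, against 4.01% to 4.24% over all genes of a library. LHX9, a gonad regulator, was at 22.7 CPM in both dKO libraries and at 22.5 and 17.9 CPM in tKO. LHX6, which acts in cortical interneurons, was at 11.2 and 11.6 CPM in dKO and at 10.5 and 13.2 CPM in tKO. The motor neuron regulators ISL1 and ISL2 were both higher in each tKO library than in each dKO library. ISL2 was at 16.2 and 13.8 CPM in dKO and at 16.6 and 16.8 CPM in tKO. ISL1 (chr5:50679282-50690564, plus) had 78 and 96 counts in dKO and 89 and 109 counts in tKO, or 4.23 and 5.34 CPM against 5.42 and 6.79 CPM. The 2 dKO libraries differed more from each other in ISL1 than dKO 2 differed from tKO 1. LHX3, LHX5, LHX8 and LMX1A did not pass, with no count of LHX3 or LHX5 in any library and 0, 1, 6 and 3 counts of LMX1A in dKO 1, dKO 2, tKO 1 and tKO 2.

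Of the 9 paired box genes, 5 passed the filter. PAX6 (chr11:31806327-31839509, minus), the regulator of eye, forebrain and pancreatic islets, was highest, at 47.1 and 51.5 CPM in dKO, 47.8 CPM in tKO 1 and 36.6 CPM in tKO 2. The level in tKO 1 lay between those of the dKO libraries and the level in tKO 2 below all others, and 10.7% of the stranded counts over PAX6 were on the opposite strand. PAX2, which acts in kidney and hindbrain, was at 21.8 and 18.9 CPM in dKO and at 15.7 and 21.6 CPM in tKO. PAX9, which acts in tooth and vertebral column, was at 18.96 and 19.5 CPM in dKO and at 17.4 and 17.6 CPM in tKO, with no overlap between the groups. PAX5, the factor that commits cells to the B lineage, was at 14.9 and 16.0 CPM in dKO and at 12.7 and 13.8 CPM in tKO, again without overlap. PAX8, a thyroid and kidney factor, had only 82, 63, 57 and 68 counts in dKO 1, dKO 2, tKO 1 and tKO 2, and 61.9% of the stranded counts over its exons were on the opposite strand, where PAX8-AS1 is annotated with 1148, 1061, 1031 and 1218 counts. PAX3 and PAX7, the regulators of neural crest and muscle progenitors, PAX1, the sclerotome partner of PAX9, and PAX4, an islet factor, were not tested. PAX1 and PAX3 had no count in any library, and PAX4 and PAX7 had 1 count in a single library each.

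The homologs of the fly eye gene sine oculis were mostly on. SIX4, a factor of muscle precursors, was at 42.8 and 41.7 CPM in dKO and at 40.7 and 33.8 CPM in tKO. SIX3, which specifies forebrain and eye, was at 32.3 and 35.6 CPM in dKO and at 34.7 and 31.2 CPM in tKO. Its neighbour SIX2, which maintains nephron progenitors, was at 12.7 and 13.1 CPM in dKO and at 12.4 and 13.0 CPM in tKO. Neither gene differed between the groups by more than between libraries of one group. SIX5 was at 26.7 and 26.1 CPM in dKO and at 27.2 and 22.7 CPM in tKO. SIX6, a retinal and pituitary factor, had 1 count in tKO 1 and none elsewhere, although it lies at chr14:60975864-60979568, close to SIX4 at chr14:61176257-61191069.

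Among the 6 NK genes, NKX2-1, a thyroid and lung factor, was at 23.2 and 25.5 CPM in dKO and at 24.1 and 23.05 CPM in tKO. NKX2-2, a ventral neural tube and islet factor, was at 13.9 and 14.6 CPM in dKO and at 14.9 CPM in both tKO libraries. NKX6-1, which acts in beta cells and motor neurons, was at 14.5 and 14.8 CPM in dKO and at 14.1 and 14.5 CPM in tKO. The groups of NKX2-2 and NKX6-1 did not overlap, by narrow margins, and those of NKX2-1 did. NKX3-2, a factor of the axial skeleton, was at 6.18 and 7.95 CPM in dKO and at 5.67 and 6.66 CPM in tKO. NKX2-5, the cardiac factor, and NKX6-2, a factor of oligodendrocytes, had no count in any library. NKX2-2 (chr20:21491655-21494702) and PAX1 (chr20:21686297-21699119) thus lay near each other with one on and the other without a count.

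The EMX, EN and MSX genes were at moderate to low levels. EN2, a midbrain and hindbrain factor, was at 28.1 and 23.2 CPM in dKO and at 25.8 and 29.1 CPM in tKO. Per the study's methods, the targeting vectors for introns carried a splice acceptor from EN2, and its part in these counts was not tested. EN1 had 46 and 36 counts in dKO, 30 in tKO 1 and 60 in tKO 2, the widest gap between tKO libraries of any tested member, at 0.96 on the log2 scale. MSX1, a craniofacial factor, was at 10.9 and 9.06 CPM in dKO and at 8.65 and 9.59 CPM in tKO, and MSX2 at 10.9 and 10.4 CPM in dKO, 9.81 CPM in tKO 1 and 15.4 CPM in tKO 2. EMX1, a cortical factor, was at 10.6 and 12.0 CPM in dKO and at 10.2 and 12.5 CPM in tKO, while EMX2 had 1 count in tKO 2 and none elsewhere. In MSX2 as in EN1, tKO 2 stood above the other 3 libraries.

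The Iroquois genes divided by genomic cluster. IRX3 (chr16:54317216-54320699) was at 17.7 and 20.8 CPM in dKO and at 20.6 and 18.9 CPM in tKO, and IRX5 (chr16:54964777-54968397) at 8.89 and 10.3 CPM in dKO and at 11.5 and 8.10 CPM in tKO. In the second cluster, IRX4 (chr5:1877527-1887350) had 1 count in dKO 2 and none elsewhere, IRX2 (chr5:2745959-2751791) had 1, 1, 1 and 8 counts in dKO 1, dKO 2, tKO 1 and tKO 2, and IRX1 (chr5:3595946-3601517) had none. All 3 members on chromosome 5 were thus under the filter and both members on chromosome 16 above it. IRX genes pattern heart, limb and neural tissue. CDX2, the intestinal and trophectoderm factor, was at 14.8 and 15.8 CPM in dKO and at 14.8 and 17.2 CPM in tKO. POU3F2, a neural POU factor, was at 54.1 and 66.0 CPM in dKO and at 61.7 and 49.5 CPM in tKO, so that the tKO libraries lay on either side of dKO 1.

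The 16 members under the filter did not form families of their own. Of these, 7 had no count in any library (PAX1, PAX3, LHX3, LHX5, NKX2-5, NKX6-2 and IRX1), which allows a level of up to 0.187 CPM in the smallest library. A further 6 (PAX4, PAX7, SIX6, LHX8, EMX2 and IRX4) had 1 count in a single library. PITX3, LMX1A and IRX2 reached 3 counts or more in at least 1 library. These limits cover counting error only. Among 19 groups of close paralogs, drawn up from the known family trees after the levels had been seen, 11 held members on both sides of the filter and 7 had every member above it. In 1 group, PAX3 and PAX7, no member passed. The divided groups included LHX4 over LHX3, LHX6 over LHX8, LMX1B over LMX1A, NKX6-1 over NKX6-2, EMX1 over EMX2, PAX9 over PAX1, PAX6 over PAX4 and SIX3 over SIX6. Reads that match several loci were not counted, so closely similar exons lose counts in every member of such a group.

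The CpG numbers of promoters overlapped between the transcribed members and those under the filter. Across the 30 tested members with a window, the median was 26.5 CpG dinucleotides in 300 bases (range 9 to 50) and the median GC content 66.7%. The 12 members under the filter with a window had a median of 25.5 (range 2 to 44) and a GC content of 68.2%. Among protein-coding genes, by contrast, the median was 27 in the 10260 past the filter and 6 in the 4738 under it. The windows of IRX1 and PAX3 printed above, with 38 and 21 CpG dinucleotides, stood over genes without a count, and that of OTX2, the most abundant member, held 9. The window nearest the 5′ end was taken where a gene had several, as OTX2 and PAX6 did. The letters TATAAA, on either strand, were in 2 of the 30 windows (6.67%, GSC and PAX5) and in 0 of the 12. They were in 5.43% of the windows of protein-coding genes past the filter, in 18.4% of those under it and in 12.0% of all 27305 windows. TAATTA, a core that many homeodomains bind and that reads alike on both strands, was in 1 of the 30 (3.33%, MSX2) and 1 of the 12 (EMX2). It was in 1.86% of the windows of protein-coding genes past the filter, in 6.35% of those under it and in 4.995% of all windows. Windows were not compared for IRX3, IRX5, SIX3, SIX5, DLX3, DLX4, DLX5, PAX1, LHX5, EMX1, EN1, NKX2-5 and NKX6-2.

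**Figure D2:**
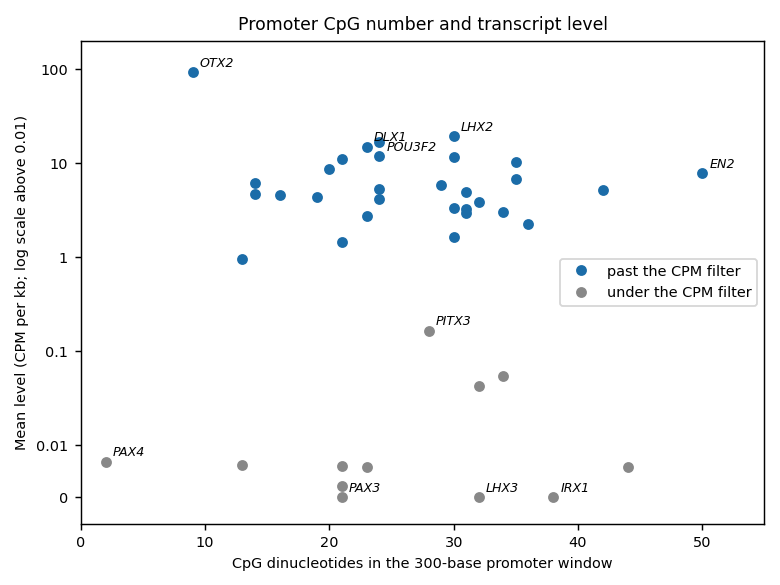
Number of CpG dinucleotides in the 300-base RefSeq window (horizontal) against mean level over the 4 libraries in CPM per kb of the canonical transcript (vertical, log scale above 0.01), for the 42 genes with a window. Tested members (blue, n = 30) and members under the filter (grey, n = 12) cover overlapping ranges of CpG number, 9 to 50 and 2 to 44.

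In tKO cells the tested regulators stood close to their dKO levels, and no member was called as changed with loss of BAP1. DE was set at an adjusted p below 0.05 with an absolute log2 fold change above 1 in limma, and 0 of the 39 members met it, against 0.0132% of all 15136 tested genes (2 genes, BAP1 among them). At an unadjusted p below 0.05 there were likewise 0 members, against 3.55% of all tested genes, and DESeq2 and the edgeR quasi-likelihood test likewise had 0 members DE and 0 at an unadjusted p below 0.05. A change of over 2-fold, without regard to the test, was seen in 0 members, against 1.78% of all tested genes. The fold changes ran from -0.32 to 0.35 on the log2 scale, with 17 above 0 and 22 below 0 and a median of -0.03, beside a median of -0.00 (7523 above 0 and 7613 below 0) over all tested genes. With 2 libraries a group, a miss of the threshold does not show that levels were equal. The 95% interval, however, lay within 2-fold for 37 of the 39 members, all but EN1 (log2 fold change 0.22, interval -0.70 to 1.15) and GSC (0.24, interval -0.55 to 1.03). It lay within 0.5 of 0 on the log2 scale for 18 members. The standard error of the log2 fold change had a median of 0.167 over the members and of 0.161 over all tested genes.

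**Figure D3:**
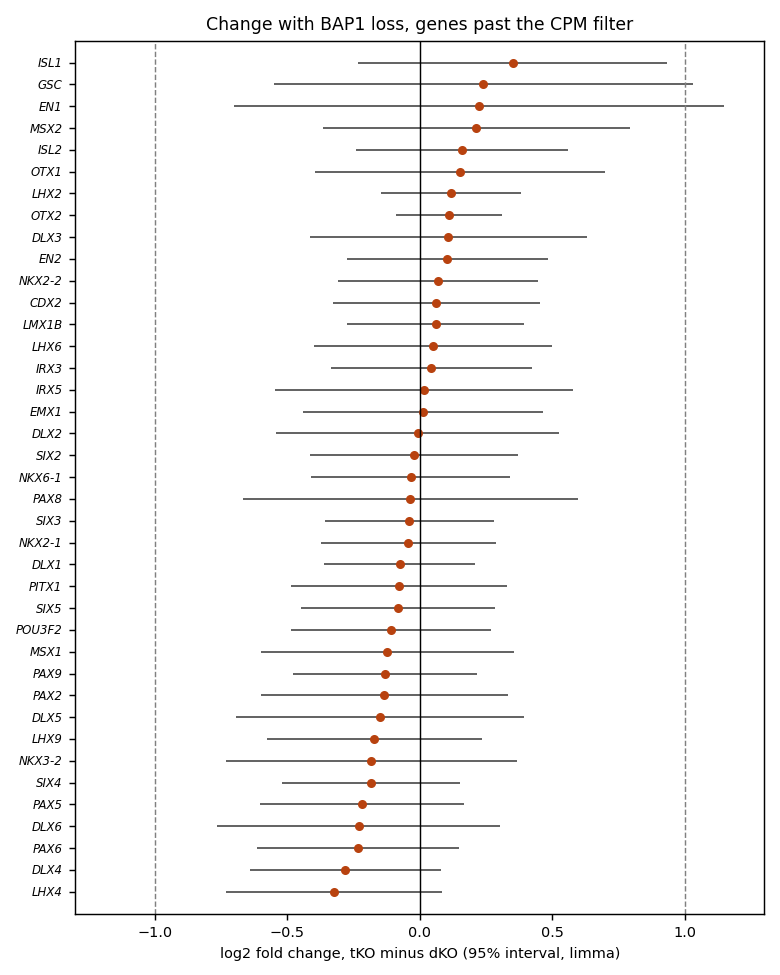
Log2 fold change of tKO against dKO for the 39 tested members (points) with 95% limma intervals (bars), ordered by fold change; dashed lines mark a 2-fold change. Every interval spans 0, and those of EN1 and GSC cross the upper line.

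The members at the ends of this range were LHX4 and ISL1, picked out after their values were seen. LHX4 fell short of the threshold at a log2 fold change of -0.32 (SE 0.17, interval -0.73 to 0.08; limma, adjusted p = 0.996), and its unadjusted p was the lowest of the 39 members. ISL1 stood at 0.35 (SE 0.24, interval -0.23 to 0.93). Leaving out 1 library at a time, LHX4 ran from -0.16 (without dKO 2) to -0.49 (without dKO 1) and ISL1 from 0.19 (without dKO 1) to 0.50 (without dKO 2), on the log2 scale. Among the 10 members highest per kilobase, DLX4 was at -0.28 (SE 0.15), PAX6 at -0.23 (SE 0.16), DLX6 at -0.23 (SE 0.22), DLX5 at -0.15 (SE 0.23) and POU3F2 at -0.11 (SE 0.16), all on the log2 scale. DLX1 at -0.08 (SE 0.12), NKX2-1 at -0.04 (SE 0.14) and SIX3 at -0.04 (SE 0.13) lay nearest to 0. All these members, OTX2 and LHX2 had an adjusted p of 0.996 in limma. No member can therefore be named as raised or lowered by loss of BAP1 at this depth and number of libraries.

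By family, all 5 tested paired box genes (-0.23 to -0.04), all 4 sine oculis genes (-0.18 to -0.02) and 5 of 6 distal-less genes (range -0.28 to 0.11) had a log2 fold change below 0. Of the LIM genes, 5 of 7 were above 0 (range -0.32 to 0.35), as were 4 of 5 EMX, EN and MSX genes (-0.12 to 0.22), 3 of 4 paired-like genes (-0.08 to 0.24) and both Iroquois genes (0.01 to 0.04). Of the NK genes 1 of 4 was above 0 (-0.18 to 0.07), and CDX2 was at 0.06. None of these values passed the test. Both tKO libraries stood above both dKO libraries in 5 members (OTX2, LHX2, ISL1, ISL2 and NKX2-2), which is 12.8% of the 39 against 15.8% of all tested genes. They stood below in 7 (LHX4, DLX1, DLX4, SIX4, PAX5, PAX9 and NKX6-1), or 17.9% against 15.9%. The share of members whose groups did not overlap was thus near that of all genes in both directions.

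For 27 of the 39 members the gap between tKO 1 and tKO 2 was wider than that between the genotypes. A gap between 2 single libraries varies more than a difference between means of 2 libraries. The share over all tested genes was not computed, so the count does not set these members apart. The absolute log2 ratio between tKO 1 and tKO 2 had a median of 0.205, against 0.115 between the dKO libraries and a median absolute fold change of 0.111 between genotypes. DLX5, DLX6 and PAX6 were lowest in tKO 2, and in each of them tKO 1 stood at or above the lower dKO library. Without tKO 1, these 3 members passed an adjusted p of 0.05 in limma (DLX5 at -0.49, adjusted p = 0.0331; DLX6 at -0.56, adjusted p = 0.0117; PAX6 at -0.44, adjusted p = 0.0226), as did 8.32% of all tested genes. Here tKO 2 alone stands for its genotype and is assumed to vary as the dKO libraries do. Without tKO 2, the log2 fold change was 0.19 for DLX5, 0.10 for DLX6 and -0.028 for PAX6, none of them past the threshold. No member was over 2-fold apart between the tKO libraries, whereas 914 of all tested genes (6.04%) were.

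**Figure D4:**
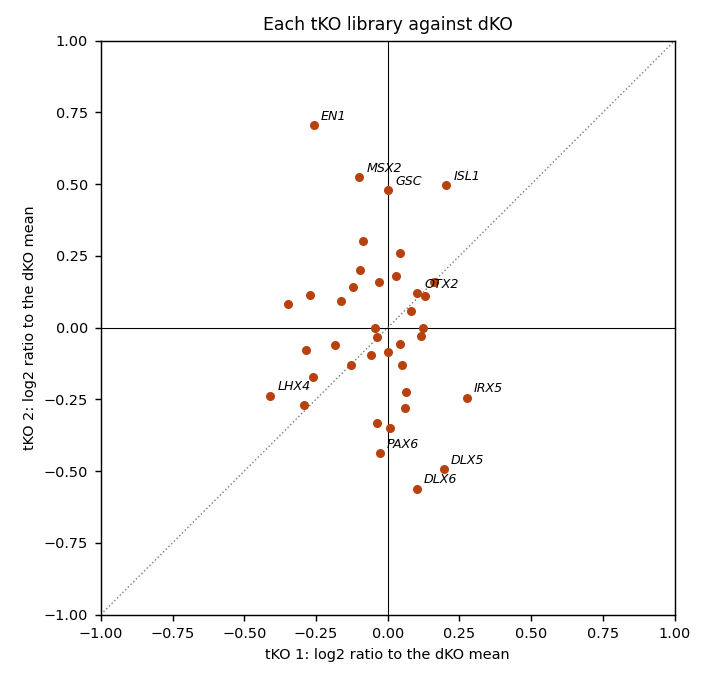
Log2 ratio of each tKO library to the mean of the dKO libraries for the 39 tested members, tKO 1 on the horizontal and tKO 2 on the vertical axis; the dotted diagonal marks equal ratios. DLX5 and DLX6 lie below 0 in tKO 2 and above 0 in tKO 1, EN1 the other way round, and LHX4 below 0 in both.

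Transcripts of most of the listed cofactors of these proteins were present in the same libraries. Of 20 listed partners (LDB and SSBP cofactors of LIM proteins, LMO proteins, EYA and DACH partners of the sine oculis proteins, TLE corepressors and PAXIP1), 19 were matched and 18 passed the filter (94.7%, against 64.8% of protein-coding genes). Per kilobase of the canonical transcript LDB2 (35.5 CPM per kb), TLE3 (22.9) and PAXIP1 (22.8) were highest. With the length of all annotated exons, LDB1 (16.6 CPM per kb) stood above LDB2 (15.5). SSBP4 (12.1) then stood above TLE3 (10.4) and PAXIP1 (9.11). No partner was DE in limma, DESeq2 or edgeR, and the fold changes were above 0 in 7 and below 0 in 11, with a median of -0.06. At an unadjusted p below 0.05 there was 1 partner (5.56%, against 3.55% of all tested genes). This was LMO4, a LIM-only protein that competes with LIM homeobox proteins for LDB cofactors, at 41.1 and 43.7 CPM in dKO and 58.3 and 64.2 CPM in tKO. Its groups did not overlap, at a log2 fold change of 0.53 (SE 0.11; limma, adjusted p = 0.839). The log2 fold change of LMO4 was 0.59 without tKO 1 and 0.48 without tKO 2, where a lone tKO library stands for its genotype.

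Of 112 matched homeobox genes outside the list, 67 (59.8%) passed the filter. ADNP (39.6 CPM per kb), PBX3 (24.9) and POU5F1 (57.9), the pluripotency factor, were the highest 3 per kilobase of the canonical transcript. With the length of all annotated exons, TGIF2 (19.5 CPM per kb) stood above PBX3 (14.4). In limma, DESeq2 and edgeR 0 of the 67 were DE, and in limma 4 (5.97%, against 3.55% of all tested genes) had an unadjusted p below 0.05, 1 above 0 (BARHL2 at 0.59 on the log2 scale) and 3 below 0, CUX2 and ZEB1 among them, all at an adjusted p of 0.996. CUX2 was at 16.0 and 15.7 CPM in dKO and at 8.71 and 3.67 CPM in tKO, a log2 fold change of -1.46 (SE 0.39). Without tKO 1 it was -2.08 and without tKO 2 -0.84, with a lone tKO library in each fit. BARHL2 was at 0.81 without tKO 1 and at 0.38 without tKO 2. ZEB1, at -0.57, lies in the stretch of chromosome 10 that was low in tKO 1, and it was at -0.21 without tKO 1 and at -0.93 without tKO 2. Whether the lists differ in their share of small p-values was not tested.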

How the data were processed

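RNA from 4 libraries was sequenced as stranded, poly(A)-selected RNA-seq. The authors trimmed reads with cutadapt (1.12) through Trim Galore (0.4.4), removed ribosomal RNA reads with bowtie (1.2) and mapped the rest to GRCh37 with STAR (2.5.2b), with up to 6 mismatches and 20 loci per read. Raw counts of uniquely mapped reads per GENCODE gene were deposited, unnormalised, as 3 columns per library. Most gene reads of this kit were in the column for the antisense strand, which was used, and the unstranded column served as an alternative. The 4 summary lines that name no gene (unmapped, multimapping, outside genes or ambiguous reads), 27.3% to 28.7% of a column, stayed out of library totals.

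Samples were grouped by the genotype in their labels. The study describes its replicates as independent biological ones, and the labels do not say whether they came from separate clones. Gene names, positions and transcript lengths came from GENCODE 44 lifted to GRCh37, matched on Ensembl identifiers without version, and promoter windows from RefSeq on GRCh38.p14. Genes above 0.5 CPM in at least 2 libraries were kept. TMM-scaled log2-CPM values (edgeR 4.0.16, prior count 2) were fitted with genotype as the sole term in limma (3.58.1, R 4.3.3), with a mean-variance trend, and p-values were adjusted by Benjamini-Hochberg over all 15136 tested genes. Fold changes on this scale understate changes of genes with few counts. Printed CPM values are per 1000000 counts in genes, without TMM. Floors cover counting error only, since reads were not deduplicated by molecular identifiers.

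The rule for named genes gave levels for every tested member, and fold changes for members that were called, over 2-fold apart or among the 10 highest per kilobase; LHX4, ISL1, GSC and EN1 were added after their values were seen. Sequences of the homeodomains, which that rule also named, were not analysed here, and promoters are shown in their place. Some genes of the list of other homeobox genes are counted in its totals but not reported here. The members and the lists were chosen with earlier results of these data known. Alternatives were DESeq2 (1.42.0), limma-voom, edgeR's quasi-likelihood test, omission of the trend, scaling by RLE or by library totals, no filter or one at 5 CPM, a prior count of 0.25, unstranded counts, a replicate block, leaving out each library and, added after the data were seen, exon union lengths. The fit was tested on simulated data for the median size of planted changes. How many planted changes passed the threshold is not reported here.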

Additional observations from a re-analysis of the deposited data

Results flagged for a closer look

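Counts on the strand opposite to the gene were used only within the unstranded alternative, and stood above the library-wide share of 4.01% to 4.24% for 3 of the 39 tested regulators. Of the members under the filter, IRX2, PAX3 and SIX6 also had as many or more counts on the opposite strand as on their own, at few counts. Over the 4 libraries they made up 61.9% of the stranded counts over PAX8, 40.4% over LHX4 and 10.7% over PAX6. PAX8 had 123, 85, 115 and 115 opposite-strand counts in dKO 1, dKO 2, tKO 1 and tKO 2. LHX4 had 334, 243, 272 and 200, with ACBD6, annotated on that strand, at 310, 275, 292 and 252 counts. PAX6 had 109, 107, 101 and 62, with ELP4 on that strand at 572, 658, 544 and 519 counts. Exons of 21 members overlapped a gene on the opposite strand, and those of 1, NKX2-1, a gene on the same strand, SFTA3, which had no count in any library.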

How the results depend on the processing

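The count of DE members was 0 under every alternative run. Without the trend, without a filter and without either dKO library, BAP1 itself missed the adjusted p threshold. In those fits a count of 0 cannot decide whether members changed. The tested members numbered 39 under each alternative but 5 CPM, which left 36, and no filter, which took in 48. The sign of no member's fold change depended on the test, the scaling, the prior count or the filter, and unstranded counts turned 2 members with values near 0 (NKX2-2 and PAX8). Without a filter, 1 member was over 2-fold apart and at an unadjusted p below 0.05, LMX1A (1.44, limma adjusted p = 0.734), with 10 counts in all, and with unstranded counts 1 member was at an unadjusted p below 0.05, LHX4 (-0.35). For the other homeobox genes that count, 4, was 2 with DESeq2 and 2 at 5 CPM. BAP1 stayed at -3.77 without the trend (limma adjusted p = 0.384) and at -3.78 without a filter (adjusted p = 0.734). DESeq2 called 25 genes DE over all tested genes, against 2 in limma. Leaving out a library, 0 to 3 members passed an adjusted p of 0.05, all 3 without tKO 1, and 0 to 8 members, 1 to 3 partners and 0 to 16 other homeobox genes were at an unadjusted p below 0.05, with 0 to 3 other homeobox genes DE. The log2 fold change then ranged from -4.05 to -3.50 for BAP1, from -0.25 to 0.20 for RING1, from -0.49 to 0.19 for DLX5, from -0.56 to 0.10 for DLX6, from -0.13 to 0.050 for SIX3, from -0.28 to 0.062 for POU3F2, from -0.10 to 0.012 for NKX2-1, from -0.26 to 0.71 for EN1 and from -0.44 to -0.028 for PAX6. The cause of these changes was not tested. In each such fit a lone library stands for its genotype. Over all tested genes, too, more were DE or at an unadjusted p below 0.05 without either tKO library. Fewer were so without either dKO library. Whether the shares of members, partners and other homeobox genes in these fits differ from the share over all tested genes was not tested. The counts for these lists therefore do not set them apart from other genes.

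Replicate numbers run from 1 to 2 in both groups, but deviations from the group means were hardly correlated between libraries of the same number (r = 0.0581 across 15136 genes, which are not independent), so the number is no evidence of pairing. With a replicate block, 0 members were DE or at an unadjusted p below 0.05, 13 genes in all were DE against 2, and BAP1 stayed at -3.77 (limma adjusted p = 0.00022). Depth limits what can be said of the 16 members under the filter, most of which had 1 count or none in all.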

Other observations

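Of the 67 tested homeobox genes outside the list, 7 differed by over 2-fold between tKO 1 and tKO 2 (10.4%, against 6.04% of all tested genes). Between dKO 1 and dKO 2, 0 of the 67 did so, against 227 of all 15136 tested genes. POU5F1 was at 69.5 and 77.5 CPM in dKO, at 50.1 CPM in tKO 1 and at 129 CPM in tKO 2. SATB1, a chromatin organizer whose gene lies in the stretch of chromosome 3 that was low in tKO 2, was at 89.8 and 89.2 CPM in dKO, 94.7 CPM in tKO 1 and 37.7 CPM in tKO 2. IRX6, which lies on chromosome 16 with IRX3 and IRX5, was at 2.17 and 1.72 CPM in dKO, 5.12 CPM in tKO 1 and 1.99 CPM in tKO 2. ONECUT1 was higher in tKO 2, with 44 against 18 counts, and CUX2 and GSX2 in tKO 1, with 143 against 59 and 48 against 19 counts. IRX2, under the filter, had its 8 counts in tKO 2 beside 15 counts on the opposite strand, against 5, 5 and 0 in dKO 1, dKO 2 and tKO 1.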
